A study of Mus musculus with 2 samples.

Results

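The basic helix-loop-helix (bHLH) transcription factors *Neurog1*, *Neurog2*, *Neurod1*, *Neurod2*, *Neurod4*, *Neurod6* and *Bhlhe22* and the inhibitors of DNA binding *Id2* and *Id4* were followed from dividing progenitors to settled neurons of the embryonic mouse cortex. The members are a fixed list of 9 genes, all found among the 32285 genes of both count matrices. Droplet single-cell libraries (10x Genomics 3′ v3.1) had been prepared from papain-dissociated cortex of 2 embryos at embryonic day 16.5, called embryo 4 and embryo 5 after the numbers in their labels. Both embryos are labelled WT and carry the prefix EoMltt3 in their titles, no treatment is given, and there is no second condition, so the comparisons below are between classes of cells within the same embryos. The tissue label reads brain hemispheres, and cells with markers of the ganglionic eminences were found beside the cortical ones.

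Proneural bHLH factors pair with E proteins, bind E-boxes in DNA and drive progenitors out of division and into neuronal differentiation. In the dorsal telencephalon the neurogenins act in progenitors and the Neurod genes follow in cells that are becoming glutamatergic neurons. Id proteins carry the dimerization region without the DNA-binding one, take up E proteins and so hold bHLH factors inactive, and Hes factors, driven by Notch, repress proneural genes.

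The libraries held 12825 and 12289 barcodes with 124318613 and 117679925 UMIs, and 9932 and 10416 cells were kept, with a median of 10041.5 and 8849.5 UMIs. Cells were clustered without the 9 members and without 29 related genes, so that the classes do not rest on the genes described, and clusters were named from markers. The radial glia-like (RGC-like) class held 1555 cells in embryo 4 and 1617 in embryo 5, the intermediate progenitor-like (IPC-like) class 812 and 848, the newborn excitatory neuron-like class 990 and 1001, the upper-layer neuron-like class 1072 and 1274 and the deep-layer neuron-like class 795 and 802. Of the 27 clusters, 11 stayed unnamed and held 34.3% and 35.7% of the cells. The 6 markers of GABAergic neurons summed to between 4.55 and 18.97 counts per 1000000 (CPM) in these 5 classes, against 1723 and 1609 CPM in the interneuron-like cells of the medial ganglionic eminence (MGE). The embryos shared 46 barcodes, and leaving those cells out changed no call of a member described below.

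Levels are CPM, the UMIs of a gene over all UMIs of the class in that embryo, and are compared between classes and not between genes. All cells were taken at embryonic day 16.5. A step, rise or fall below is therefore a difference between classes and not a course followed in the same cells. The upper-layer and the deep-layer class were each compared with the newborn class, and descent of either from it was not tested. Coordinates are those of GRCm38.p6, the mm10 build of the counting. *Neurog1* (chr13:56250478-56252180) has its whole canonical transcript in 1 exon, as has *Bhlhe22* (chr3:18054325-18057514), and *Neurog2* (chr3:127632733-127635636), *Neurod1* (chr2:79452637-79456636), *Neurod2* (chr11:98325415-98329645), *Neurod4* (chr10:130268152-130280254) and *Neurod6* (chr6:55677818-55681263) have 2. *Id2* (chr12:25093799-25096092) and *Id4* (chr13:48261116-48266028) have 3. *Neurod1* overlaps *Cerkl* on the same strand in GENCODE vM39 (GRCm39), so reads in shared sequence may have been lost to it or dropped.

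E-boxes, written CANNTG, were looked for between 250 bases before and 50 bases after each start in RefSeq (GRCm38.p6), because they are the sequence that bHLH proteins recognise. Windows were found for 8 of the 9 members. Of all 32851 windows in the table, 72.3% hold at least 1 CANNTG, so a match is common. The pattern reads the same on both strands. The stretches below are those of the Neurod genes whose levels followed each other from progenitor to neuron, with the E-box in capitals and read 5′ to 3′ on the gene's own strand, which is the minus strand in each.
*Neurod1*, chr2:79456863-79456886: gggaagacCATATGgcgcatgccg
*Neurod2*, chr11:98329748-98329773: tagagagtgaCAGATGgcggcgggtc
*Neurod2*, chr11:98329681-98329706: caccgtctctCATGTGatagctgctg
*Neurod2*, chr11:98329647-98329672: gtgccaagccCATATGgcctggcata
*Neurod6*, chr6:55681410-55681435: gcccaccttgCAAATGaatggaatat
*Neurod6*, chr6:55681380-55681405: gactgcctaaCAGTTGcaccattggc
The form CATATG occurs in the windows of both *Neurod1* and *Neurod2*, and in 3.91% of all windows. The *Neurod2* form CAGATG, or its reverse complement, occurs in 17.2% of all windows. The windows of *Neurog2* and *Id4* hold no CANNTG, which says only that these letters are absent from this stretch.

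The neurogenins and *Neurod4* marked the IPC-like class. *Neurog2*, which starts neurogenesis in dorsal progenitors, stood at 121 and 81.3 CPM in RGC-like cells of embryos 4 and 5, rose to 708 and 617 CPM in IPC-like cells and fell to 33.7 and 30.7 CPM in newborn neuron-like cells. It stood at 12.3 and 10.7 CPM in upper-layer and at 2.43 and 0.934 CPM in deep-layer neuron-like cells. No class overlapped the next in this order. Relative to RGC-like cells the level in IPC-like cells was higher by 2.77 on the log2 scale (SE 0.16, adjusted p = 5.02e-08, edgeR's quasi-likelihood test), and from IPC-like to newborn neuron-like cells it fell by 4.22 (SE 0.18, adjusted p = 4.42e-09). Against the newborn class *Neurog2* was lower by 1.48 in upper-layer (SE 0.21, adjusted p = 0.000193) and by 4.12 in deep-layer neuron-like cells (SE 0.32, adjusted p = 3.97e-07). The upper-layer step missed the threshold with the members in the clustering (-0.63, adjusted p = 0.0693) and with cells sorted by their marker UMIs alone (-1.17, adjusted p = 0.0912).

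*Neurog1*, the close relative of *Neurog2*, was measured at 30.1 and 27.7 CPM in IPC-like cells and at 2.88 and 2.22 CPM in RGC-like cells, higher by 3.55 on the log2 scale (SE 0.22, adjusted p = 2.5e-07). In newborn neuron-like cells no UMI of *Neurog1* was counted in either embryo, against 459 in IPC-like cells. With the classes as set here, the level in newborn neuron-like cells was at least 175-fold lower when set against a floor of 3 UMIs over both embryos. Over the alternative settings and the single embryos the log2 difference lay between -11.29 and -7.08, so its size depends on the setting. After thinning, 0 of 972 and 0 of 989 newborn neuron-like cells held a UMI, which allows shares of up to 0.309% and 0.303%, a limit of 3 counts on cells with a UMI at this depth, not on cells that express the gene, for counting error only.

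*Neurod4*, a Neurod gene that acts early in neuronal differentiation, was high in the same class. It reached 33.3 and 33.9 CPM in IPC-like cells, against 0.176 and 0.801 CPM in RGC-like and 0.309 and 0.715 CPM in newborn neuron-like cells. Both steps passed the test, up by 6.15 (SE 0.34, adjusted p = 3.37e-08) and then down, with a log2 fold change of -5.91 (SE 0.39, adjusted p = 1.16e-07). Only 16 UMIs in RGC-like and 9 in newborn neuron-like cells stand behind these low levels, so the sizes are loose while the direction was the same in both embryos.

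**Figure D1:**
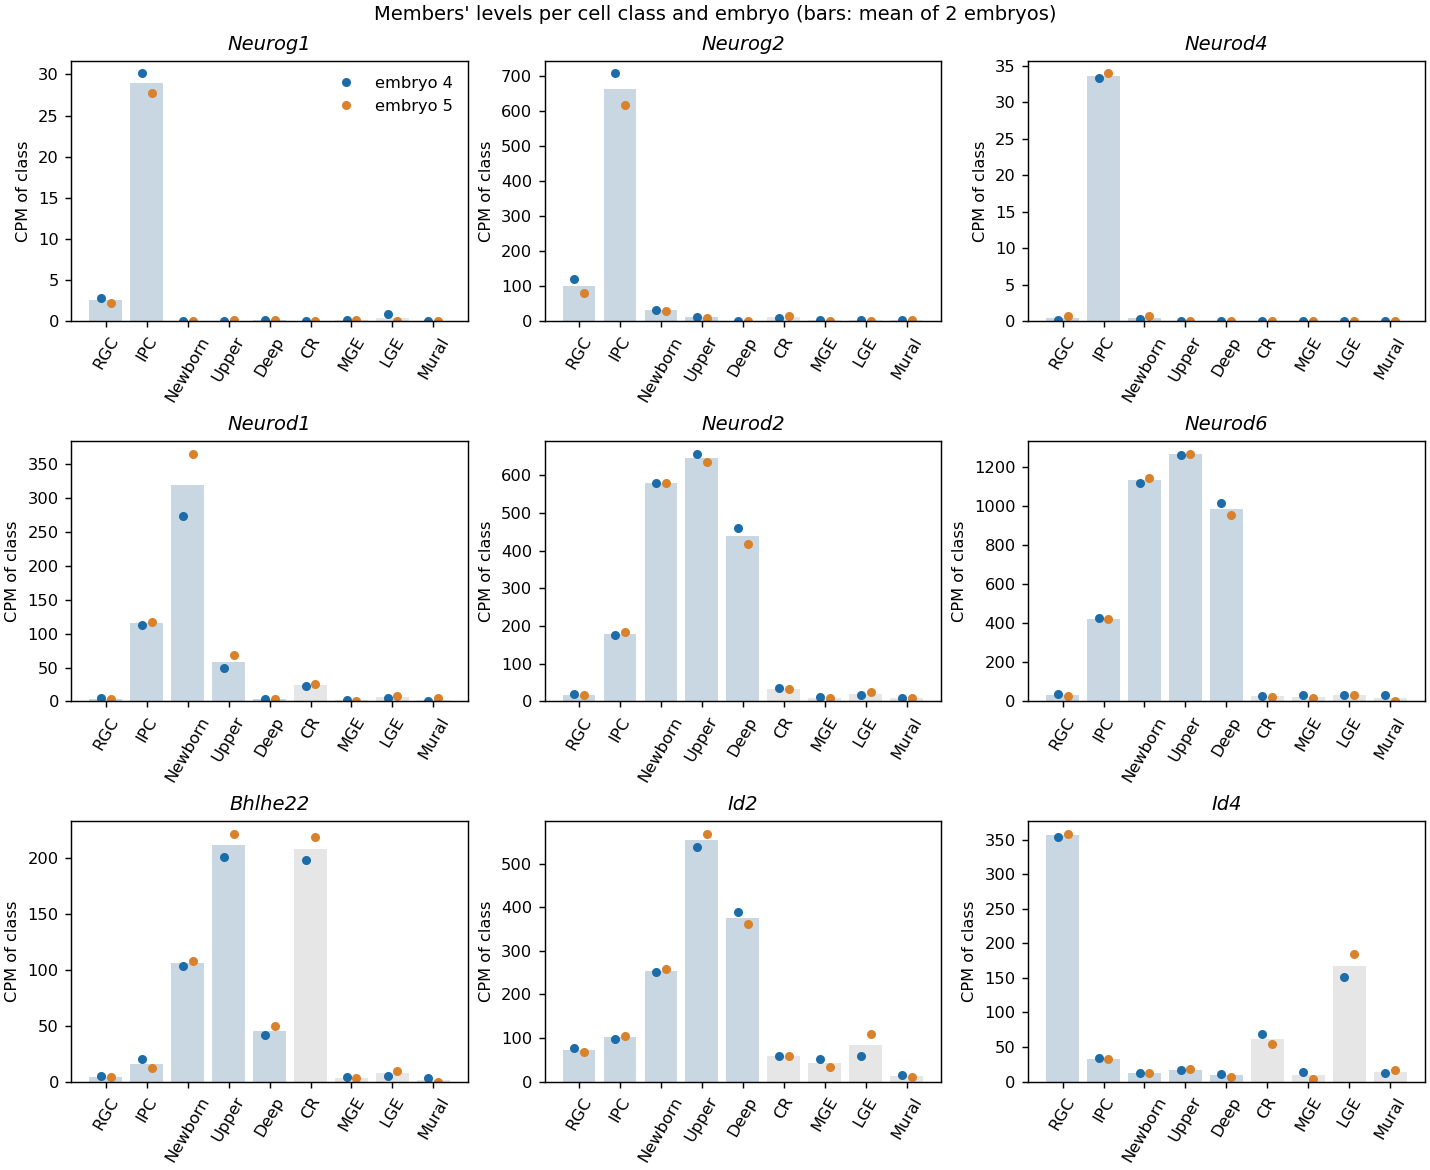
Level of each member in CPM (vertical axis, a scale of its own in each panel) by cell class, with the mean of 2 embryos as a bar and each embryo as a point. CR stands for Cajal-Retzius-like, MGE and LGE for neurons with markers of the medial and lateral ganglionic eminence. By mean level *Neurog1*, *Neurog2* and *Neurod4* stand highest in IPC-like, *Neurod1* in newborn neuron-like and *Id4* in RGC-like cells. The means of *Neurod2*, *Neurod6*, *Bhlhe22* and *Id2* are highest in upper-layer neuron-like cells. There *Bhlhe22* overlaps with Cajal-Retzius-like cells, and *Neurod2* and *Neurod6* did not pass the test against the newborn class.

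*Neurod1*, which promotes differentiation of cells leaving the cycle, came next. Its level was 4.64 and 3.08 CPM in RGC-like cells, 113 and 117 CPM in IPC-like cells, 273 and 365 CPM in newborn, 49.0 and 68.9 CPM in upper-layer and 4.25 and 3.97 CPM in deep-layer neuron-like cells. The rise from RGC-like to IPC-like cells was 4.95 on the log2 scale (SE 0.23, adjusted p = 6.33e-09). Against the newborn class *Neurod1* was lower by 2.43 in upper-layer (SE 0.17, adjusted p = 4.49e-07) and by 6.18 in deep-layer neuron-like cells (SE 0.24, adjusted p = 8.88e-10). In deep-layer neuron-like cells *Neurod1* was at the level of RGC-like cells, with overlapping embryos. This class is the cluster led by *Hs3st4* alone. An unnamed cluster led by *Slit3* and the deep-layer marker *Crym* held far more *Neurod1*, as given below. Its deep-layer markers as a whole stood low, so its layer is not known.

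Whether *Neurod1* was higher in newborn neuron-like than in IPC-like cells differed between ways of setting the classes. The log2 difference was 1.61 (SE 0.16, adjusted p = 6.65e-06), with 1.41 in embryo 4 and 1.78 in embryo 5. It was 0.34 (adjusted p = 0.0924) with finer clusters (resolution 2), 0.14 (adjusted p = 0.687) when cells were sorted by their marker UMIs alone, and -0.50 (adjusted p = 0.0459) when the members were let into the clustering. With the unnamed cluster described next added to the newborn class it was 1.61 (adjusted p = 5.27e-06). With the members in the clustering the IPC-like class rose to 273 CPM of *Neurod1* and the newborn class stood at 178 CPM. That cluster of 442 and 458 cells that shared leading genes of both classes, *Eomes* and *Unc5d* among them, held 308 and 361 CPM of *Neurod1*, 158 and 164 CPM of *Neurog2* and 5.94 and 9.79 CPM of *Neurod4*. The highest levels of *Neurod1* thus span these cells and the newborn class.

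*Neurod2* and *Neurod6*, which are kept on in maturing cortical excitatory neurons, rose with the same steps and stayed up. *Neurod2* stood at 19.1 and 16.1 CPM in RGC-like, 176 and 184 CPM in IPC-like, 581 and 581 CPM in newborn neuron-like, 658 and 636 CPM in upper-layer and 459 and 418 CPM in deep-layer neuron-like cells. *Neurod6* stood at 38.9 and 30.1 CPM, 425 and 422 CPM, 1120 and 1144 CPM, 1258 and 1268 CPM and 1013 and 956 CPM in the same classes. From RGC-like to IPC-like cells *Neurod2* rose by 3.41 (SE 0.09, adjusted p = 1.04e-10) and *Neurod6* by 3.67 (SE 0.10, adjusted p = 1.39e-10). From IPC-like to newborn neuron-like cells they rose by 1.83 (SE 0.08, adjusted p = 4.85e-09) and 1.56 (SE 0.09, adjusted p = 4.86e-08).

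Among the neurons the differences in *Neurod2* and *Neurod6* were small. Between upper-layer and newborn neuron-like cells the log2 differences were 0.16 (SE 0.08, adjusted p = 0.128) for *Neurod2* and 0.17 (SE 0.09, adjusted p = 0.184) for *Neurod6*, and neither passed the test, though each did in 4 of 17 other settings, where the differences reached 0.39 and 0.41. In deep-layer neuron-like cells *Neurod2* was lower than in the newborn class by a log2 fold change of -0.31 (SE 0.08, adjusted p = 0.00466), a call lost with doublets kept, with cells sorted by marker UMIs and with the intermediate cluster added to the newborn class. *Neurod6* differed there by -0.11 (SE 0.09, adjusted p = 0.331).

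*Bhlhe22*, a repressor of the Olig family that acts in projection neurons together with *Prdm8*, rose later. It was at 4.93 and 3.76 CPM in RGC-like cells, 20.04 and 12.2 CPM in IPC-like cells, 103 and 108 CPM in newborn neuron-like cells and 201 and 221.6 CPM in upper-layer neuron-like cells, but only at 41.3 and 49.9 CPM in deep-layer neuron-like cells. The first step, into IPC-like cells, was 1.96 (SE 0.23, adjusted p = 2.12e-05). The step into the newborn class was its largest, 2.84 on the log2 scale (SE 0.17, adjusted p = 6.18e-08). From there it rose by 1.01 to the upper-layer class (SE 0.14, adjusted p = 0.000121), and its deep-layer level was lower, with a log2 fold change of -1.13 (SE 0.15, adjusted p = 4.82e-05), or -0.13 (adjusted p = 0.701) with cells sorted by marker UMIs alone. The low deep-layer level is that of the cluster led by *Hs3st4*. Unnamed clusters with the deep-layer markers *Fezf2* or *Crym* among their leading genes held more, as given below. The deep-layer markers as a whole stood low in these clusters. Cajal-Retzius-like cells, an early-born cell type of the marginal zone, held 198 and 218 CPM of *Bhlhe22*, a level overlapping that of the upper-layer class, while *Neurod2* and *Neurod6* were at 34.2 and 26.1 CPM there as means of both embryos.

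**Figure D2:**
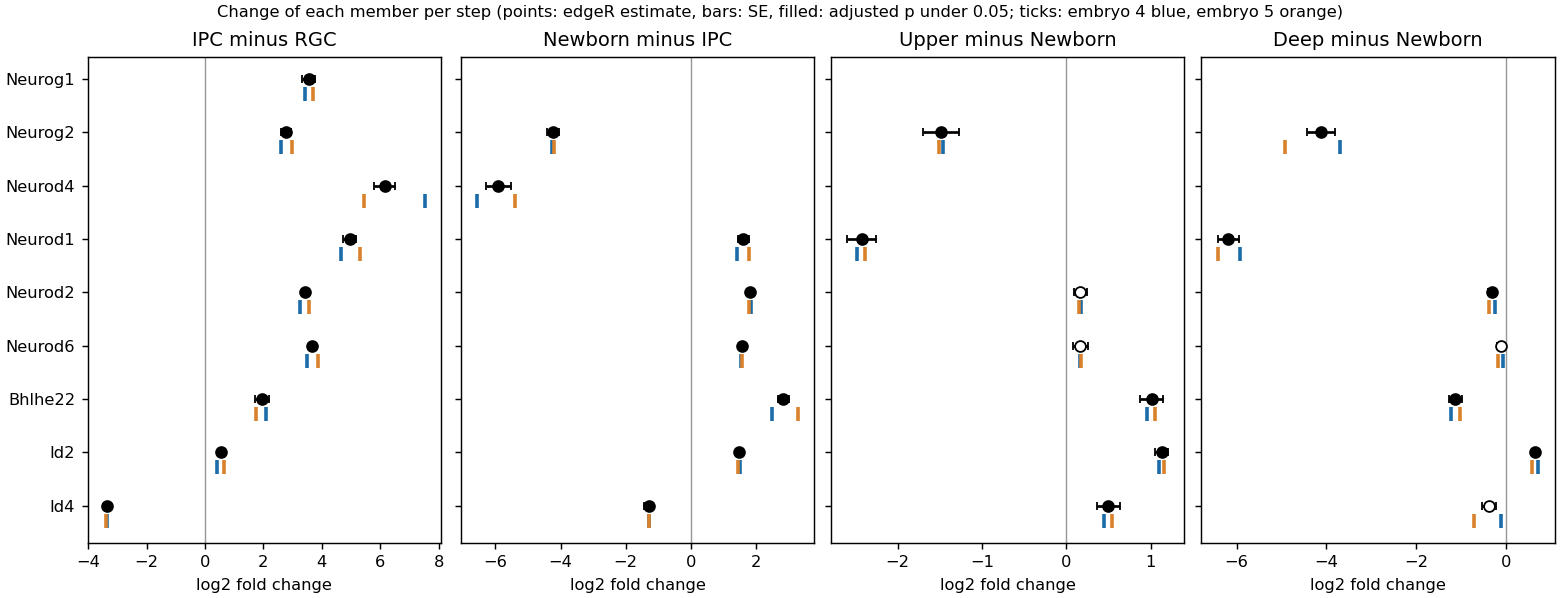
Log2 fold change of each member at each of the 4 steps (horizontal axis, a scale of its own in each panel), as the edgeR estimate with its SE; filled points passed an adjusted p of 0.05, ticks under each point give embryo 4 (blue) and embryo 5 (orange), and genes with 3 or fewer UMIs in a class are left out. *Neurog2* and *Neurod4* turn from higher to lower at the second step, where *Neurod1*, *Neurod2*, *Neurod6*, *Bhlhe22* and *Id2* rise. The rise of *Neurod1* at this step differed between ways of setting the classes.

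The Id genes moved in opposite directions. *Id4* was at 354 and 359 CPM in RGC-like cells and at 33.4 and 33.2 CPM in IPC-like cells, a drop by 3.36 on the log2 scale (SE 0.11, adjusted p = 3.46e-10), and at 12.4 and 12.3 CPM in newborn neuron-like cells, a further fall with a log2 fold change of -1.30 (SE 0.13, adjusted p = 5.97e-06). With doublets kept, this second step was -0.16 (adjusted p = 0.212), and with cells sorted by marker UMIs -0.35 (adjusted p = 0.525). In neurons its level was low, at 16.8 and 17.7 CPM in upper-layer and 10.7 and 7.01 CPM in deep-layer neuron-like cells, and the log2 difference of 0.50 between upper-layer and newborn neuron-like cells (SE 0.14, adjusted p = 0.015) turned to -0.95 (adjusted p = 4.35e-05) with doublets kept and missed the threshold in 4 other settings. The deep-layer difference from the newborn class was -0.37 (SE 0.16, adjusted p = 0.0692), with -0.12 in embryo 4 and -0.71 in embryo 5. It passed the test in 7 of 17 other settings, where it lay between -0.39 and -1.58. Shares of cells with *Id4* in neurons are set beside those of MGE interneuron-like cells below. Outside the excitatory lineage, LGE neuron-like cells held 151 and 184 CPM of *Id4*.

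*Id2* did the reverse and was highest in neurons. It was at 77.1 and 68.6 CPM in RGC-like, 98.3 and 104 CPM in IPC-like, 252 and 258 CPM in newborn neuron-like, 539 and 569 CPM in upper-layer and 390 and 361 CPM in deep-layer neuron-like cells. All 4 steps passed the test, with log2 fold changes of 0.53 (SE 0.08, adjusted p = 0.000186), 1.47 (SE 0.08, adjusted p = 2.87e-08), 1.13 towards the upper-layer class (SE 0.08, adjusted p = 3.77e-07) and 0.65 towards the deep-layer class (SE 0.08, adjusted p = 1.94e-05). The other Id genes, *Id1* and *Id3*, were both lower in IPC-like than in RGC-like cells, beside 25.6% of all genes. *Id1* was at 46.4 and 34.7 CPM in RGC-like and 6.88 and 5.68 CPM in IPC-like cells, and *Id3* at 62.3 and 51.9 CPM against 1.54 and 1.76 CPM.

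Counted over the list, 8 of the 9 members were higher in IPC-like than in RGC-like cells, beside 23.1% of the 15533 genes tested, and 1, *Id4*, was lower, beside 25.6%. From IPC-like to newborn neuron-like cells 5 were higher, beside 22.1% of all genes, and 4 lower, beside 22.9%. In upper-layer against newborn neuron-like cells 3 were higher, beside 16.2%, and 2 lower, beside 15.4%. In deep-layer against newborn neuron-like cells 4 were lower, beside 24.9%, and 2 higher, beside 25.9%. Of those 2, *Neurog1* (adjusted p = 0.0481) rests on 4 UMIs against 0, is given no fold, and passed the test in 4 of 16 other settings. *Neurod4* had 9 UMIs in the newborn, 2 in the upper-layer and 1 in the deep-layer class, with ratios to the newborn class of 0.167 (95% exact interval 0.0176 to 0.807) and 0.109 (0.00249 to 0.787). The fold changes of the 31 pairs of a member and a step with more than 3 UMIs in each class had the same sign in both embryos.

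A class sum does not tell how many cells hold a gene, so the share of cells with at least 1 UMI was counted after thinning each cell to 3000 UMIs. MGE interneuron-like cells, which should lack the excitatory members, gave the background of free RNA. *Neurog2* was found in 20.2% and 16.2% of RGC-like cells, 77.1% and 77.1% of IPC-like cells and 7.82% and 7.38% of newborn neuron-like cells, against 1.60% and 0% of MGE interneuron-like cells. Without thinning, the RGC-like and IPC-like shares were 31.2% and 26.0%, and 92.0% and 92.7%. *Neurog1* was found in 9.02% and 8.24% and *Neurod4* in 9.28% and 7.50% of IPC-like cells, or without thinning in 20.9% and 18.3% and in 22.8% and 18.99%.

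*Neurod1* was found in 20.7% and 21.3% of IPC-like and 47.3% and 56.3% of newborn neuron-like cells, with 1.12% and 0.493% as background. Without thinning the *Neurod1* shares were 40.5% and 34.4%, and 78.0% and 80.8%. *Neurod6* was found in 59.9% and 57.9% of IPC-like and 94.3% and 94.9% of newborn neuron-like cells. Over the whole RGC-like class its shares of 8.43% and 6.997% lay by the background of 8.03% and 5.92% and are not read as expression. The class mixes clusters, and the one led by *Cdc20* held more *Neurod6* than MGE interneuron-like cells, as given below. The low end of the first rise of *Neurod6* is therefore not resolved. The shares in RGC-like cells of *Neurod2* (5.48% and 3.96%, background 3.05% and 2.96%), *Neurod1* (1.64% and 0.858%, background 1.12% and 0.493%) and *Bhlhe22* (2.06% and 0.792%, background 1.77% and 0.493%) were also low, so the same limit holds for their first rise. In deep-layer neuron-like cells *Neurog2* was found in 1.16% and 0.384% of cells, against 1.61% and 0 of 608 MGE interneuron-like cells, the latter allowing up to 0.493%. *Id4* was found in 58.0% and 58.9% of RGC-like cells, 2.88% and 3.44% of newborn, 4.95% and 5.40% of upper-layer and 3.08% and 1.02% of deep-layer neuron-like cells, against 2.73% and 0.987% of MGE interneuron-like cells. The deep-layer shares of *Id4* lay by those of MGE interneuron-like cells, and in embryo 5 the newborn and upper-layer shares lay above them. *Id4* is not one of the excitatory members, so its shares in MGE interneuron-like cells are no measure of free RNA. *Bhlhe22* was found in 24.6% and 24.2% of newborn, 41.5% and 45.8% of upper-layer and 9.76% and 10.8% of deep-layer neuron-like cells, with a background of 1.77% and 0.493%.

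**Figure D3:**
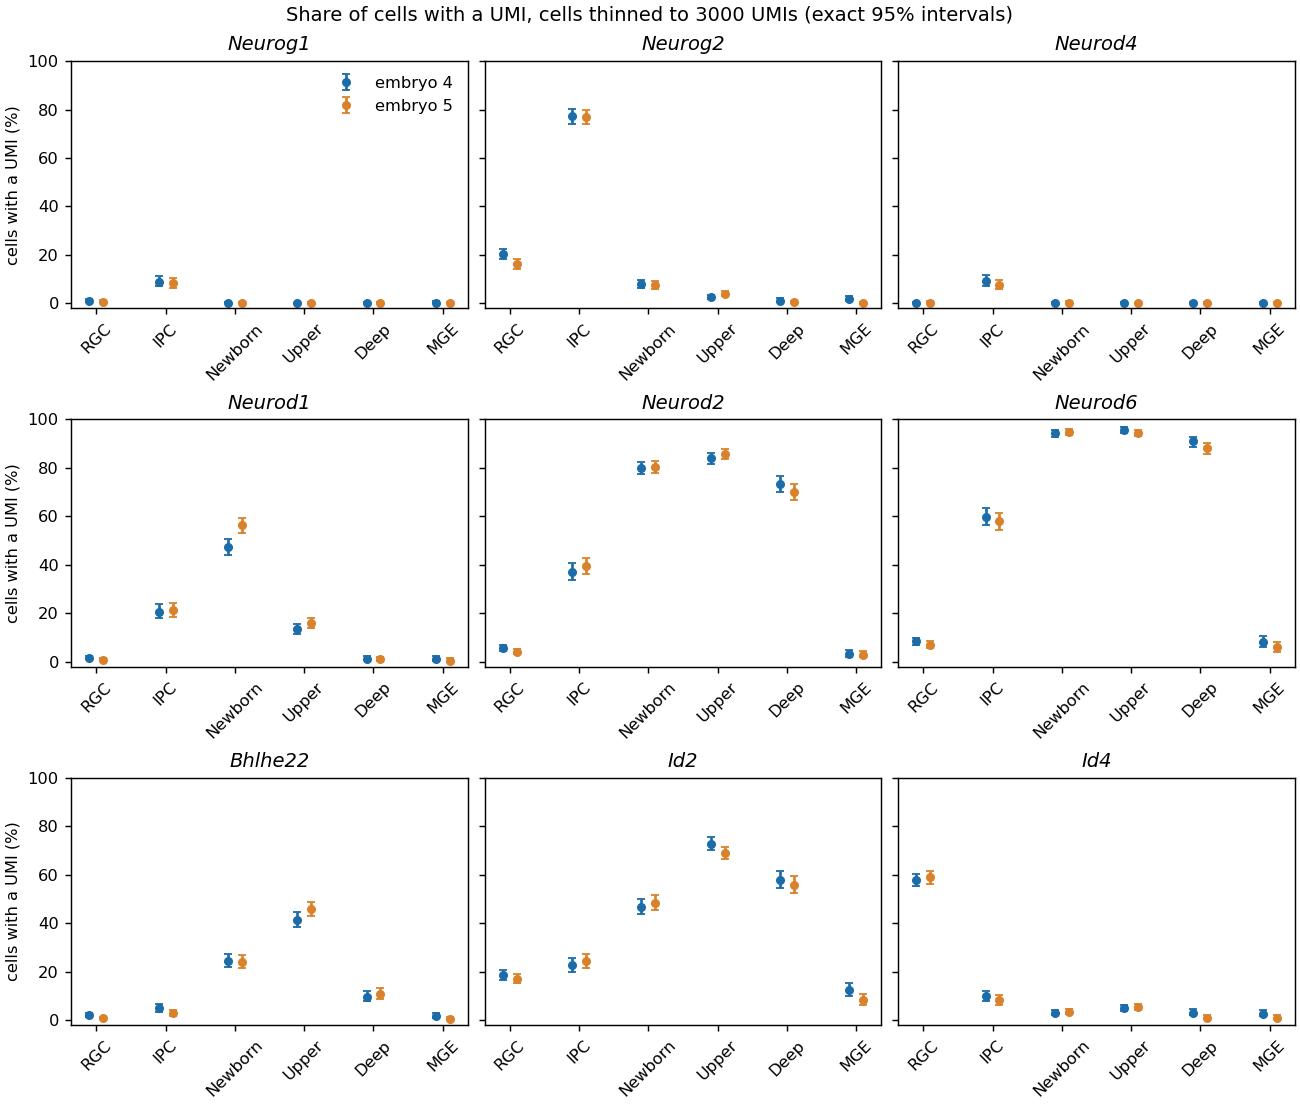
Share of cells with at least 1 UMI (vertical axis, percent) of each member in the 5 classes of the excitatory lineage and in MGE interneuron-like cells, after thinning every cell to 3000 UMIs, for embryo 4 (blue) and embryo 5 (orange) with exact 95% intervals. *Neurog2* peaks at 77.1% of IPC-like cells in both embryos, and *Neurod6* stays above 88% in the 3 neuron classes.

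Within the RGC-like class the members were spread unevenly over its 4 clusters. A less cycling cluster led by *Vim* and *Plce1* held 279 and 201 CPM of *Neurog2*, against 35.7 and 31.8 CPM in the cycling cluster led by *Prc1* and *Top2a* and 28.7 and 29.7 CPM in the cluster led by *Mt3*, *Tnc* and *Fabp7*, genes known from glia. Markers of cycling cells summed to 273 and 255 CPM in the cluster led by *Vim*, against 3434 and 3434 CPM in the one led by *Prc1*. A mitotic cluster led by *Cdc20* held 174 and 112 CPM of *Neurog2*, 145 and 179 CPM of *Neurod6* and 235 and 194 CPM of *Id4*, against 378 and 384 CPM of *Id4* in the cluster led by *Vim*. The *Neurod6* of this mitotic cluster stood above the 32.9 and 17.1 CPM of MGE interneuron-like cells, whereas the share over the whole class lay by theirs. In the IPC-like class the resting cluster held 814 and 708 CPM of *Neurog2*, 34.99 and 32.9 CPM of *Neurog1* and 39.0 and 41.0 CPM of *Neurod4*, and the cycling cluster 367 and 385 CPM, 14.48 and 14.4 CPM and 14.98 and 15.8 CPM. *Neurod1* differed little, at 119 and 119 CPM against 96.9 and 112 CPM. Leaving the cycling clusters out of both classes changed no call of a member.

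Among the neurons, clusters outside the named classes showed other mixtures. A cluster led by *Tafa1* and *Tfap2d* held 300 and 354 CPM of *Bhlhe22* with 465 and 474 CPM of *Neurod6*, the highest and the lowest mean levels of these genes among the excitatory neuron clusters other than Cajal-Retzius-like cells. A cluster led by *Rspo3* and with *Fezf2* among its leading genes held 704 and 676 CPM of *Id2*, 186 and 218 CPM of *Bhlhe22* and 11.6 and 10.9 CPM of *Neurod1*. A cluster led by *Slit3* and *Crym* held 246 and 223 CPM of *Neurod1* together with 271 and 299 CPM of *Bhlhe22*. *Fezf2* and *Crym* are single deep-layer markers. Over the whole deep-layer list the mean log2 ratio was 0.23 in the cluster led by *Rspo3* and 0.11 in that led by *Slit3*. In the named deep-layer cluster it was 2.06. Neither cluster was named deep-layer, so their levels do not tell the *Bhlhe22* or *Neurod1* of other deep-layer neurons. A cluster with *Nts* and *Calb2* among its leading genes kept 154 and 123 CPM of *Id4* beside 714 and 623 CPM of *Id2*, so that both Id genes were present in its sum.

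**Figure D4:**
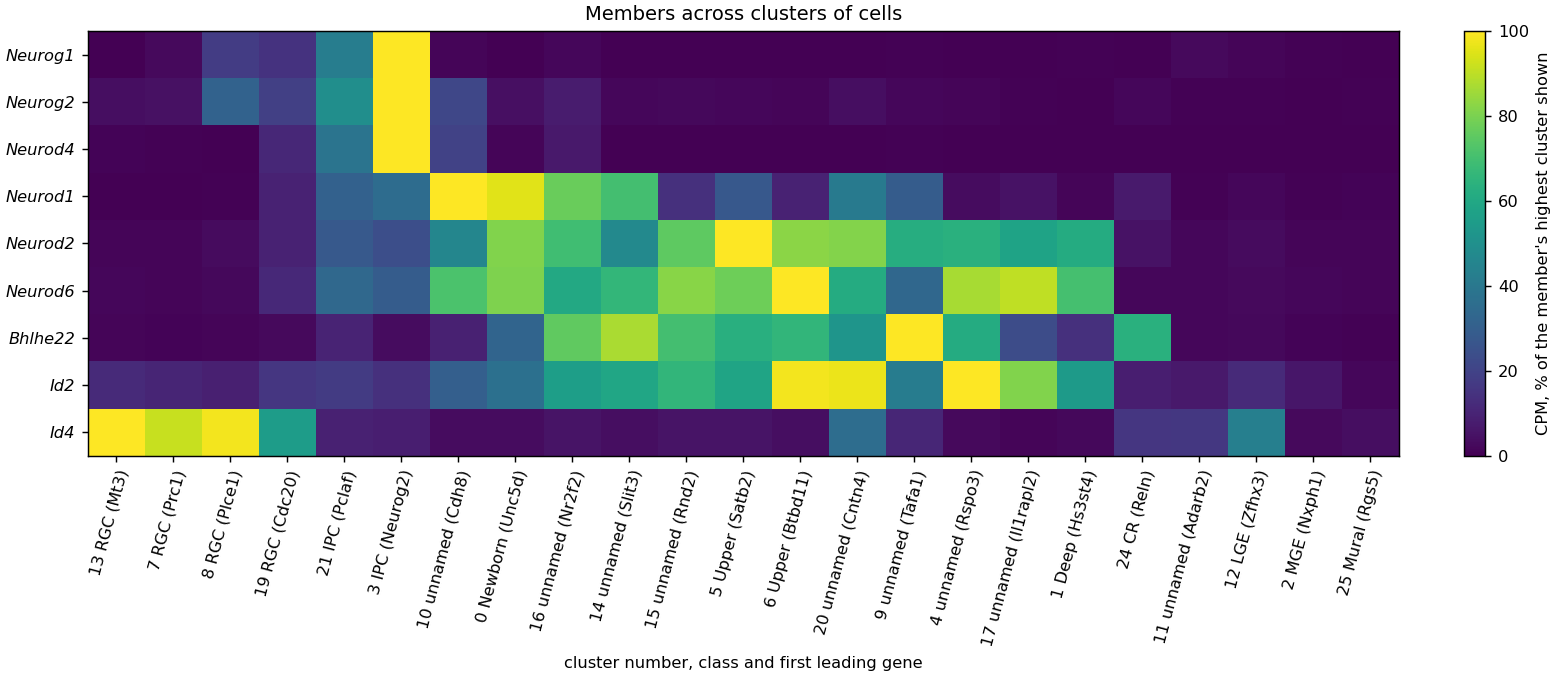
Mean level of each member in 23 clusters of cells (horizontal axis: cluster number, class where named, and first leading gene), as a percent of the member's highest cluster shown; the mixed haemoglobin-rich cluster, 1 cluster of few UMIs, 1 unnamed cycling cluster and the fibroblast-like cluster are left out. The bright cells step from *Id4* in RGC-like clusters to *Neurog1*, *Neurog2* and *Neurod4* in IPC-like clusters. They then step through *Neurod1* in the cluster led by *Cdh8* and the newborn cluster to *Neurod2*, *Neurod6*, *Bhlhe22* and *Id2* in neurons. The unnamed cluster led by *Slit3* departs from this order, with both *Neurod1* and *Bhlhe22* high.

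Single cells were then read for pairs of members, again at 3000 UMIs, as a description without a test, since the cells of an embryo are not replicates. In RGC-like cells of embryo 4, *Eomes*, the IPC marker, was found in 27.5% of the 295 cells with a *Neurog2* UMI (exact 95% interval 22.4% to 32.9%) and in 3.69% of the 1165 without (2.68% to 4.94%). In embryo 5 it was found in 40.0% of 245 cells with *Neurog2* (33.8% to 46.4%) and 3.31% of 1270 without (2.39% to 4.44%). *Neurog2* and *Eomes* thus overlapped in cells that the clustering placed among the radial glia. The clusters of this class that were high in *Neurog2* were also high in *Eomes*. Those led by *Vim* and by *Cdc20* held 94.6 and 103 CPM and 116 and 106 CPM of *Eomes*. Those led by *Prc1* and by *Mt3* held 7.58 and 17.9 CPM and 11.3 and 6.79 CPM. The shares over the class mix these clusters. The mean difference in *Eomes* shares of 30.2 percentage points over the class was 24.4 with doublets kept.

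*Id4* went the other way. It was found in 48.5% (42.6% to 54.3%) of RGC-like cells with *Neurog2* and 60.3% (57.5% to 63.2%) of those without in embryo 4, and in 44.5% (38.2% to 51.0%) against 61.6% (58.9% to 64.3%) in embryo 5. Within the cluster led by *Vim*, where *Neurog2* was highest, the shares were 51.4% against 68.5% and 46.1% against 68.8%. The mean difference over the class of -14.52 percentage points was -7.35 without thinning and -3.51 with doublets kept. *Eomes* was found in 4.85% and 5.72% of RGC-like cells with an *Id4* UMI and 13.5% and 14.3% of those without.

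In IPC-like cells *Neurog2* and *Neurod1* tended to be found apart. *Neurod1* was found in 17.3% (14.4% to 20.6%) of cells with *Neurog2* and 32.2% (25.5% to 39.6%) of those without in embryo 4, and in 18.3% (15.4% to 21.6%) against 31.2% (24.6% to 38.4%) in embryo 5. The mean difference of -13.88 percentage points was -8.79 without thinning and -21.8 with 6000 UMIs per cell. In newborn neuron-like cells *Neurod1* was instead found more often with *Neurog2*, by a mean of 10.08 percentage points, or 4.16 without thinning and 1.42 with doublets kept. The same direction as in the whole IPC-like class held in its resting cluster, with 17.97% against 32.0% and 18.3% against 30.8%, and in the cycling one, with 13.7% against 32.7% and 18.4% against 31.8%. Cells with *Neurod1* more often held *Neurod6*, at 73.0% (65.5% to 79.7%) against 56.4% (52.4% to 60.3%) in embryo 4 and 83.2% (76.8% to 88.5%) against 51.1% (47.1% to 55.0%) in embryo 5.

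*Neurog1* was mostly found together with *Neurog2*, which was present in 88.7% and 86.6% of IPC-like cells with a *Neurog1* UMI and 76.0% and 76.3% of those without. The intervals overlapped in both embryos, by little in embryo 4 (79.0% to 95.01% and 72.7% to 79.1%). *Neurod4* and *Neurog1*, which share the class, were not visibly tied at this depth. *Neurod4* was found in 9.86% and 7.46% of cells with *Neurog1* and in 9.22% and 7.51% of those without.

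**Figure D5:**
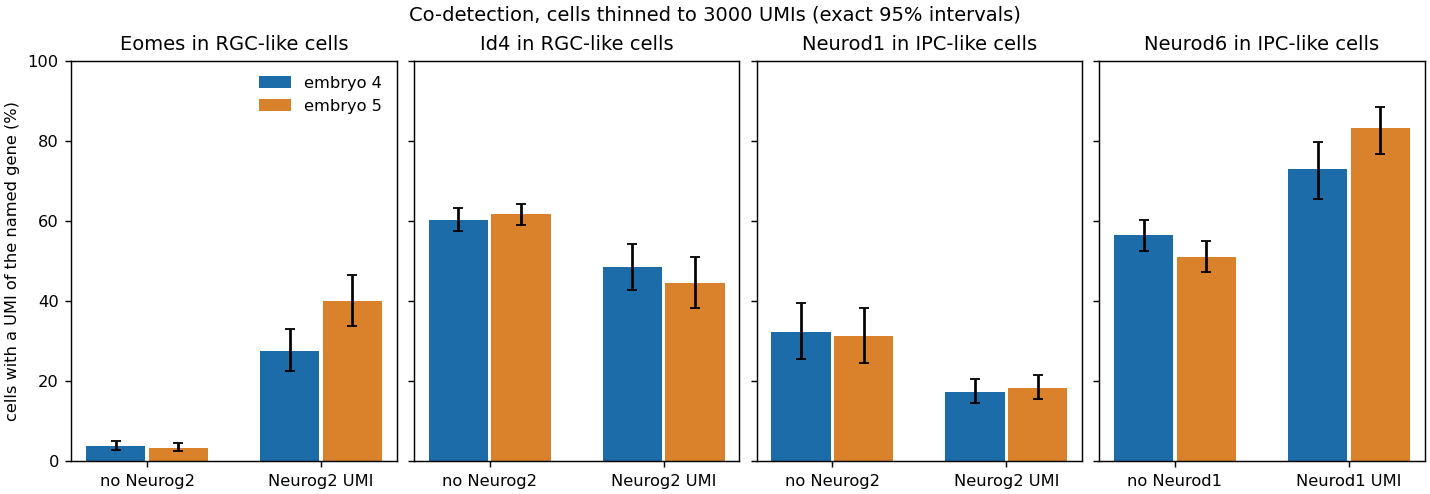
Share of cells with a UMI of the gene named above each panel (vertical axis, percent) among cells without and with a UMI of *Neurog2* or *Neurod1*, in RGC-like or IPC-like cells thinned to 3000 UMIs; bars give embryo 4 (blue) and embryo 5 (orange) and whiskers exact 95% intervals. *Eomes* rises from under 4% to 27.5% and 40.0% with *Neurog2* in RGC-like cells, *Id4* falls, *Neurod1* falls with *Neurog2* in IPC-like cells and *Neurod6* rises with *Neurod1*.

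Genes with the most similar pattern were read from the correlation of log2(CPM + 10) over 20 sums, 10 classes in 2 embryos, which share libraries and are no independent samples. The mixed haemoglobin-rich cells, not described otherwise, were among these classes. The genes most like *Neurog2* were *Celsr1* (r = 0.937), *Ccdc136* (0.925) and *Eomes* (0.923), and those most like *Neurog1* were *Coro1c* (0.920), *Neurog2* (0.895) and *Eomes* (0.851). *Neurod4* was also nearest to *Coro1c* (0.895). *Neurod1* was nearest to *Rnd2* (0.950). *Neurod2* and *Neurod6* were nearest to each other (0.983) and then to *Zbtb18* (0.951 and 0.957), *Bhlhe22* to *Cntn2* (0.927), *Id2* to *Neurod2* (0.916) and *Id4* to *Isoc1* (0.887).

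Partners and opponents of the cascade were read from related lists. The E proteins, with which the bHLH factors pair, changed little at the first step, where 2 of 3 were called higher, beside 23.1% of all genes. *Tcf4* rose from 2417 and 2569 CPM in RGC-like to 3353 and 3404 CPM in IPC-like cells and *Tcf12* from 546 and 603 to 668 and 729 CPM. All 3 E proteins were lower in upper-layer and in deep-layer than in newborn neuron-like cells, beside 15.4% and 24.9% of all genes. The medians were -1.04 and -2.06 on the log2 scale beside 0 for all genes. *Tcf4* stood at 3850 and 4134 CPM in newborn and 937 and 855 CPM in deep-layer neuron-like cells. Of the 5 Hes and Hey genes tested, 4 were lower in IPC-like than in RGC-like cells and 1 higher, beside 25.6% and 23.1% of all genes, with a median of -1.95 on the log2 scale beside -0.02. At this step *Hes1* went from 106 and 129 CPM to 5.10 and 5.13 CPM and *Hes5* from 72.4 and 57.5 CPM to 7.71 and 4.999 CPM, and *Hes6*, which counters *Hes1*, rose from 68.0 and 54.3 CPM to 266 and 255 CPM. From IPC-like to newborn neuron-like cells 3 were lower, *Hes6* among them at 59.1 and 50.5 CPM, and 1, *Hey1*, was higher, beside 22.9% and 22.1% of all genes.

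Among the other neuronal bHLH genes, 5 of 10 were tested, and 2 were higher and 2 lower in IPC-like than in RGC-like cells, beside 23.1% and 25.6% of all genes. *Nhlh1* and *Nhlh2* rose into IPC-like cells, by 4.70 and 4.01 on the log2 scale (adjusted p = 6.27e-06 and 9.17e-07). Of the 5 classes, both had their highest mean in newborn neuron-like cells, at 33.99 and 77.7 CPM and at 28.5 and 36.5 CPM. For *Nhlh1* the embryos overlapped with those of IPC-like cells, at 27.0 and 39.7 CPM. The log2 difference of *Nhlh1* between these classes was 0.88 (edgeR, adjusted p = 0.0411). Cajal-Retzius-like cells held 51.39 and 44.98 CPM of *Nhlh1*, within the newborn range, and 701 and 652 CPM of *Nhlh2*, far above it. Of the 8 genes tied to the cascade as targets or partners, 7 were higher in IPC-like than in RGC-like cells and none lower, beside 23.1% and 25.6% of all genes. Their median was 2.46 on the log2 scale beside -0.02 for all genes. From IPC-like to newborn neuron-like cells 2 rose and 5 fell, beside 22.1% and 22.9% of all genes. *Prdm8*, the partner of *Bhlhe22*, rose from 16.5 and 13.1 CPM to 90.9 and 97.0 CPM and *Rnd2*, a target of *Neurog2*, from 144 and 127 CPM to 302 and 281 CPM, while *Gadd45g* fell from 431 and 436 CPM to 33.4 and 27.4 CPM.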

How the data were processed

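Cortex of 2 WT embryos was profiled, 1 library per embryo. The authors counted UMIs against mm10 with Cell Ranger (7.0.0 in the submitters' notes, 7.1.0 in the matrix headers), and the deposited values are raw counts per gene and barcode. Barcodes with under 1000 genes or over 10% mitochondrial counts were left out (2537 and 230 in both embryos), as were 947 and 1052 doublets scored after Scrublet's procedure. Counts scaled to 10000 per cell were clustered (2000 variable genes, 30 components, 20 neighbours, Leiden resolution 1, scanpy 1.11.5, leidenalg 0.10.2, Python 3.11.15) without the 38 member and list genes. A cluster took the name of the class whose markers stood highest in it against all other cells (mean log2 CPM ratio with 10 CPM added of at least 0.5, a margin of 0.25 over the next class, 3 markers in 10% of cells), and none where another class led. Clusters led by cycling genes (2 RGC-like, 1 IPC-like) rest on that mean alone. Haemoglobin-rich cells, which held 537 and 371 CPM of GABAergic markers, and fibroblast-like cells, with 1 cell in embryo 4, were not described. The haemoglobin-rich cells did enter the correlations between genes.

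UMIs were summed per embryo and class, and the 5 classes were fitted together with edgeR 4.0.16 (R 4.3.3, TMM, filterByExpr, quasi-likelihood, Benjamini-Hochberg over 15533 genes, calls at an adjusted p under 0.05). SEs were derived from the fold change and its F statistic. The p-values rest on the spread between 2 animals within a class, pooled over the 5 classes and with information shared across genes. The fit held no term for the embryo and treated the classes of an animal as independent. The sums of an embryo come from the same animal, so embryo numbers pair them, and deviations correlated at 0.087 to 0.221 over the 10 pairs of classes. Intervals are exact binomial and cover counting error only. The fits were tested on simulated data. Of changes by 1 on the log2 scale, 65.9% to 76.9% were recovered, depending on the comparison. Of changes by 2, 87.1% to 96.8% were recovered. False calls made up 4.43% to 6.83% of all calls at the threshold of 0.05. Per list and comparison, the 2 largest changes in each direction could be named, and per member the 3 genes most like it among those of at least 20 CPM. The members and lists were chosen with earlier results of these data known. Alternatives were other scalings, DESeq2 1.42.0, filters, clusterings and class definitions.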

Additional observations from a re-analysis of the deposited data

How the results depend on the processing

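The 31 member fold changes with more than 3 UMIs in each class, and that of *Neurog1* from IPC-like to newborn neuron-like cells, were recomputed under 17 alternatives, and 22 of these 32 kept their direction and side of the threshold in each, among them all 9 from RGC-like to IPC-like cells. The called results that turned were *Neurod1* from IPC-like to newborn neuron-like cells with the members in the clustering (-0.50) and *Id4* from newborn to upper-layer neuron-like cells with doublets kept (-0.95) or classes by marker UMIs alone (-0.59). Of the results that did not pass, *Neurod2* in upper-layer against newborn neuron-like cells turned to -0.092 with at most 5% mitochondrial counts and -0.0076 with the members in the clustering, and *Neurod6* in deep-layer against newborn neuron-like cells to 0.16 with doublets kept, 0.025 at resolution 0.5, 0.23 with classes by marker UMIs alone and 0.0041 with looser naming. The causes were not tested. With classes by marker UMIs alone the numbers of genes called moved to 1189 higher and 1414 lower (newborn against IPC-like), 1015 and 737 (upper-layer against newborn) and 1725 and 1194 (deep-layer against newborn), and with the members in the clustering to 1280 and 1259 for upper-layer against newborn, fewer than in the reported fit in each. With the embryo as replicate block 4064 genes were higher and 4440 lower in IPC-like than in RGC-like cells, 3816 and 3943 in newborn against IPC-like, 3010 and 2986 in upper-layer against newborn and 4336 and 4290 in deep-layer against newborn, and no call of a member with enough UMIs changed. Without scaling, the median of all genes from IPC-like to newborn neuron-like cells shifted to -0.14. *Id2* in newborn neuron-like cells with *Neurod1* differed from those without by -6.32 percentage points, or 0.135 without thinning. Leaving out an embryo leaves no residual spread, so counts of genes had no value there. The alternatives with looser naming, without shared barcodes and with the intermediate cluster added were chosen after seeing the data. The 2 embryos, free RNA and few UMIs of *Neurog1* and *Neurod4* outside IPC-like cells limit the precision.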
